A study of Mus musculus with 9 samples.

Results

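The 10 genes described here encode enzymes that carry long-chain fatty acids into mitochondria and break them down by β-oxidation: Cpt1a, Cpt1b, Cpt2, Acadvl, Acadm, Acadl, Hadha, Hadhb, Acaa2 and Acot2. They were taken by gene symbol from 17179 symbols measured in mouse aorta, not by their measured values. All 10 were listed in each of the 9 libraries, and all 10 were among the 12997 genes tested. Levels are given as FPKM, fragments scaled for transcript length and library total, as the authors deposited them.

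Fatty acids are first activated to acyl-CoA and then exchanged onto carnitine by carnitine palmitoyltransferase 1 at the outer mitochondrial membrane, the controlled entry step of oxidation. The carnitine is removed again inside the mitochondrion, and the acyl chain is shortened by repeated rounds of dehydrogenation, hydration, a further dehydrogenation and thiolytic cleavage. Heart, oxidative muscle and brown fat depend on this pathway, white adipocytes and smooth muscle carry it at a lower rate, and the aorta lies embedded in perivascular fat.

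The libraries were bulk RNA sequencing of whole aorta from C57BL/6J mice that were killed on day 28. Normal mice (2 libraries) had distilled water, and mice of the other 4 groups had BAPN, β-aminopropionitrile, a lysyl oxidase inhibitor used to produce aortic dissection, at 1 g/kg/day. The BAPN group (2 libraries) had no further agent. The TPA group (2 libraries) had intraperitoneal TPA, an AP-1 activator, at 50 ng/g/day starting on day 1. The T-5224 group (2 libraries) had the AP-1 inhibitor T-5224 by gavage at 5 mg/kg/day, and the coQ10 group (1 library) had coenzyme Q10 by gavage at 10 mg/kg/day, in both cases starting on day 7 or day 14. The 2 T-5224 libraries carry titles of 2 and 3 weeks and are treated here as replicates 1 and 2, the numbers their treatment labels bear. The titles may mark different lengths of treatment, which cannot be told apart here from a difference between replicates. The spread within this pair, and p-values that use it, may therefore hold such a difference. The coQ10 library is labelled co110, which was read as coQ10. The labels name 12 mice per treatment. The sources used here give neither age nor sex, nor which animals, pooled or single, went into a library, so p-values measure only the spread between these libraries, which may in part be technical.

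The libraries differed in what tissue and blood they held. The smooth muscle marker Acta2 ran from 246 to 9310 FPKM, lowest in BAPN at 745 and 246, so every library held smooth muscle RNA, in unequal amount. Of summed FPKM, haemoglobin genes took 1.03% to 1.25% in normal aorta, 68.9% to 74.1% with BAPN alone, 69.2% to 69.4% with TPA, 40.8% and 11.2% with T-5224 and 5.40% with coQ10. Normal replicate 1 and T-5224 replicate 2 stood apart from the other library of their group. The summed FPKM of 8 airway epithelium markers was 18621 in normal replicate 1 and 40.0 in replicate 2, and 4986 in T-5224 replicate 2 and 22.2 in replicate 1, and skeletal and cardiac muscle markers were split in the same way, while smooth muscle markers were split the other way. Of all libraries, T-5224 replicate 2 had the strongest tilt toward short transcripts (Spearman rho of deviation on length -0.37, against 0.01 in replicate 1). The BAPN libraries also tilted toward short transcripts (-0.19 and -0.07), and the normal libraries toward long ones (0.28 and 0.40). The number of reads behind an FPKM is unknown, so no interval for counting error can be given. Values without normal replicate 1 and T-5224 replicate 2 are given beside the group comparisons, the ranges and the likeness of genes.

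Promoter letters are shown for the genes whose start regions have a feature shared within the set. RefSeq promoter windows (GRCm38.p6, from 250 bases before to 50 bases after the start) matched 8 of the 10 genes, with none used for Cpt1b and Acaa2. The hexamer AGGTCA, read by nuclear receptors such as the PPARs that control oxidation genes, was searched on both strands. It was found in 3 of the 8 windows, those of Acadm, Acadvl and Cpt1a, and in 16.3% of all 32851 windows. The extended form AAGGTCA, which contains the shorter one and is read by estrogen-related receptors, was found in 1 of the 8, Acadm, and in 4.72% of all windows. The Acadm match lay at positions -249 to -243 before the start on the opposite strand, the Acadvl match at -87 to -82 on the gene's strand, and the Cpt1a match at -94 to -89 on the opposite strand. A match describes letters only. The 250 bases before each start are printed 5′ to 3′ on the gene's strand, with the match in capitals, for Acadm (chr3:153944644-153944893, minus strand), Acadvl (chr11:70015429-70015678, minus strand) and Cpt1a (chr19:3323051-3323300, plus strand). The start used for Cpt1a lies inside the gene's annotated span, which begins with a further transcript upstream.
Acadm: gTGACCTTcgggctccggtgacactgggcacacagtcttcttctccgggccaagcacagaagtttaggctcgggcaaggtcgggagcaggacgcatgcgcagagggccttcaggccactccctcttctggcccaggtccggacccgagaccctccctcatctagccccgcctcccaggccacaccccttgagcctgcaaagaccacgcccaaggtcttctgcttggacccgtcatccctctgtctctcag
Acadvl: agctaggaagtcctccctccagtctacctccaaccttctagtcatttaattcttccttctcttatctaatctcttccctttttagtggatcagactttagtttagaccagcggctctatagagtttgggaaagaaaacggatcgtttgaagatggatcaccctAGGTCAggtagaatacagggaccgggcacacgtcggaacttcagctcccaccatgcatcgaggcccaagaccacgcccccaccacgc
Cpt1a: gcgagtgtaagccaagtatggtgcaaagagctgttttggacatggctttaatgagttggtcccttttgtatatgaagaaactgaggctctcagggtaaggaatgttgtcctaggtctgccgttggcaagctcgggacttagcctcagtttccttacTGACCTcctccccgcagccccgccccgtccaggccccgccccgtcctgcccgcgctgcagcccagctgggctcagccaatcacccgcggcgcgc

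Hadha and Hadhb, whose products form the α and β subunits of 1 enzyme complex, lie head to head on chromosome 5. In RefSeq their first transcribed bases are 30154980 on the minus strand and 30155253 on the plus strand, 273 bases apart, and in GENCODE, where the Hadha transcripts begin further out, 30155162 and 30155248. The 85 bases that lie upstream of both genes in both annotations are printed on the plus strand (chr5:30155163-30155247, GRCm38.p6, RefSeq), to show how short the region shared by the pair is. Neither motif was found in them and nothing is capitalised.
Hadha-Hadhb: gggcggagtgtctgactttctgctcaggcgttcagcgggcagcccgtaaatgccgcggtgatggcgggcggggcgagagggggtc

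Among the entry enzymes, Cpt1a and Cpt1b followed different libraries. Cpt1a (chromosome 19, 3322326 to 3385735 in RefSeq, GRCm38), the carnitine palmitoyltransferase 1 form of liver and many other tissues, was at 38.2 and 45.7 FPKM in normal aorta, 21.1 and 27.1 with BAPN alone, 17.7 and 18.0 with TPA, 17.3 and 9.35 with T-5224 and 28.6 with coQ10. As deposited, both normal libraries lay above all others, and the values within a group lay close together except in T-5224. After median-of-ratios scaling, which removes the median shift of all genes, BAPN replicate 2 (33.7) lay above normal replicate 1 (27.7). Cpt1b, the form of muscle and brown fat, was at 95.8 and 11.4 FPKM in normal aorta, 8.15 and 3.77 with BAPN alone, 34.2 and 41.0 with TPA, 5.34 and 32.8 with T-5224 and 59.9 with coQ10. The normal and T-5224 pairs were each split between a high and a low library, while BAPN was low in both and TPA high in both. The highest Cpt1b value was 25.4 times the lowest, the widest range of the 10 genes, against 4.88 times for Cpt1a, the narrowest. Without normal replicate 1 and T-5224 replicate 2 the ranges were 15.9 times for Cpt1b, still the widest, and 2.63 times for Cpt1a, next to the narrowest, 2.59 for Acot2.

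The balance of the 2 forms turned over between libraries. Cpt1b divided by Cpt1a was 2.51 in normal replicate 1 and 0.25 in replicate 2, 0.39 and 0.14 with BAPN alone, 1.94 and 2.27 with TPA, 0.31 and 3.50 with T-5224 and 2.09 with coQ10. Cpt1b exceeded Cpt1a in 5 of the 9 libraries, and these 5 were also the 5 highest for the adipocyte hormone gene Adipoq, for the brown fat lipid droplet gene Cidea and for the cardiac myosin gene Myh6, while 4 of the 5 were among the 5 highest for Plin1, Ucp1 and Ckm. For Myh6 the fifth place rested on 2.27 FPKM in coQ10 against 1.69 in normal replicate 2. Without normal replicate 1 and T-5224 replicate 2, Cpt1b exceeded Cpt1a in 3 of 7 libraries, which were the 3 highest for Adipoq, Plin1, Ucp1, Cidea and Myh6 and held 2 of the 3 highest for Ckm. In the annotation Cpt1b (chromosome 15, 89416405 to 89425862, GRCm38) lies within a readthrough transcript that joins it to the neighbouring gene Chkb on the same strand, so their reads can be split in more than 1 way. Chkb, a choline kinase, ran from 18.7 to 43.2 FPKM and did not divide the libraries as Cpt1b did, with 26.8 in normal replicate 1 and 26.6 in BAPN replicate 2.

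Cpt2 (chromosome 4, 107903982 to 107923589), which returns the acyl group to CoA at the inner membrane, was at 64.6 and 14.3 FPKM in normal aorta, 14.0 and 8.44 with BAPN alone, 19.8 and 23.8 with TPA, 15.6 and 21.02 with T-5224 and 42.5 with coQ10. It was high in normal replicate 1 and coQ10, and the T-5224 pair lay closer together than for any other of the 10 genes, at a ratio of 1.35.

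**Figure D1:**
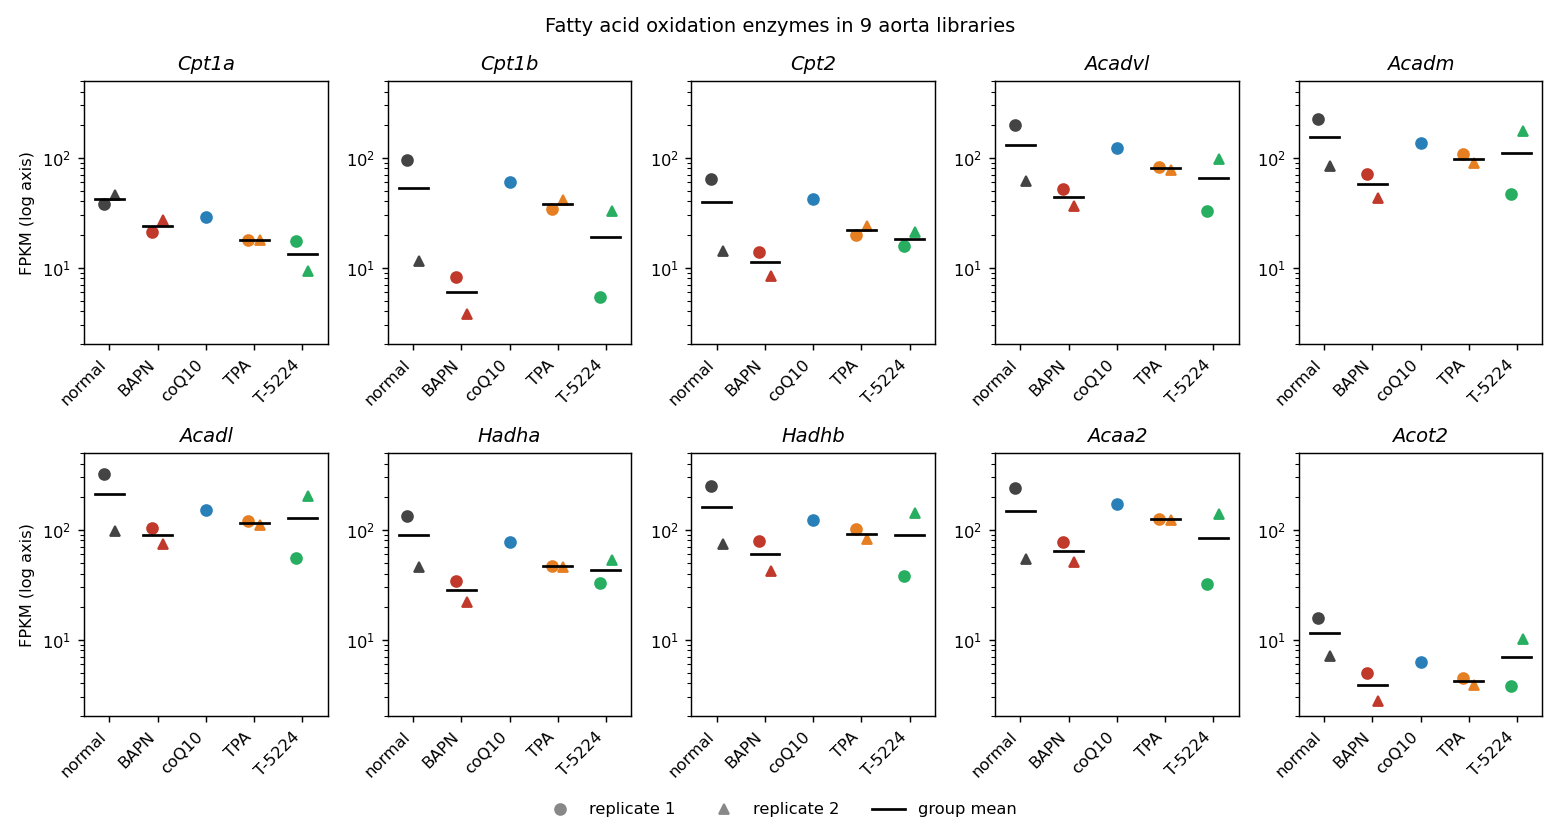
FPKM (log axis) of the 10 fatty acid oxidation enzymes in each library, by group; circles are replicate 1, triangles replicate 2, and horizontal lines the mean of a group with 2 libraries. The normal and T-5224 pairs are far apart for most genes, and Cpt1a is the gene with the lower value in normal replicate 1 and in T-5224 replicate 2. Its group means lie in the order normal, coQ10, BAPN, TPA, T-5224.

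The acyl-CoA dehydrogenases take the first step of each round and differ in the chain length they act on. Acadvl (chromosome 11, 70010183 to 70015428), for very long chains, was at 199 and 61.2 FPKM in normal aorta, 52.3 and 36.3 with BAPN alone, 83.1 and 77.2 with TPA, 33.0 and 98.2 with T-5224 and 123 with coQ10. Acadm (chromosome 3, 153922353 to 153944643), for medium chains, was at 226 and 83.6 FPKM in normal aorta, 71.6 and 43.3 with BAPN alone, 108 and 89.1 with TPA, 47.2 and 174 with T-5224 and 136 with coQ10. Acadl (chromosome 1, 66830839 to 66863309), for long chains, was at 326 and 97.0 FPKM in normal aorta, 105 and 73.5 with BAPN alone, 121 and 111 with TPA, 55.1 and 202 with T-5224 and 150 with coQ10. All 3 were highest in normal replicate 1, and T-5224 replicate 1 was the lowest library for Acadvl and Acadl and BAPN replicate 2 for Acadm. For Acadl the BAPN and normal groups overlapped, with BAPN replicate 1 above normal replicate 2. Per unit of length, Acadl was the most abundant of the 10 in 6 libraries and Acaa2 in the other 3, which were coQ10 and both TPA libraries. In the annotation Acadvl overlaps Dvl2 on the other strand, and the sources used here do not say whether counting used strand.

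The mitochondrial trifunctional protein carries the next steps for long chains, with Hadha as the hydratase and hydroxyacyl-CoA dehydrogenase subunit and Hadhb as the thiolase subunit. Hadha was at 133 and 45.7 FPKM in normal aorta, 34.1 and 22.2 with BAPN alone, 47.0 and 45.7 with TPA, 32.8 and 52.7 with T-5224 and 77.6 with coQ10. Both BAPN libraries lay below both normal libraries. Hadhb was at 249 and 74.8 FPKM in normal aorta, 79.0 and 41.8 with BAPN alone, 101 and 81.7 with TPA, 38.0 and 143 with T-5224 and 124 with coQ10. Hadhb exceeded Hadha in all 9 libraries although the complex holds equal numbers of both subunits, and the ratio of Hadhb to Hadha ran from 1.16 in T-5224 replicate 1 to 2.72 in T-5224 replicate 2. These extremes of the ratio are the 2 libraries of 1 group, and the other 7 libraries lay between 1.60 and 2.32. Hadha overlaps Garem2 on the other strand in the annotation.

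Acaa2 (chromosome 18), the mitochondrial thiolase for medium and shorter chains, was at 241 and 53.9 FPKM in normal aorta, 77.3 and 51.1 with BAPN alone, 126 and 123 with TPA, 32.0 and 138 with T-5224 and 172 with coQ10. Normal replicate 2 lay between the BAPN libraries, so the 2 groups overlapped. Acot2 (chromosome 12, 83987861 to 83993877), a mitochondrial thioesterase that releases free fatty acid from acyl-CoA, was at 15.8 and 7.16 FPKM in normal aorta, 4.96 and 2.76 with BAPN alone, 4.45 and 3.87 with TPA, 3.79 and 10.2 with T-5224 and 6.25 with coQ10. It was the least abundant of the 10 in 8 libraries, and both BAPN libraries lay below both normal ones. Its near-identical neighbour Acot1, a cytosolic form, was at 62.6 FPKM in T-5224 replicate 2 and at 1.28 to 20.5 in the other 8, and reads can be divided between the copies in more than 1 way. The level of Acot2 is therefore less certain than that of the other 9.

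Between the libraries of a group, Cpt1a ran against the other 9 genes in 3 of the 4 pairs. In the normal pair, replicate 1 divided by replicate 2 was 0.84 for Cpt1a and 2.21 to 8.39 for the other 9. In the T-5224 pair, replicate 2 divided by replicate 1 was 0.54 for Cpt1a and 1.35 to 6.14 for the other 9. In the BAPN pair, replicate 1 divided by replicate 2 was 0.78 for Cpt1a and 1.43 to 2.16 for the others, whereas in the TPA pair the 10 ratios lay between 0.83 and 1.24. Over the 9 libraries the SD of log2 (FPKM + 1) had a median of 0.81 for the 10 genes and 0.56 for all tested genes, and all 10 lay above the median of all genes. Without normal replicate 1 and T-5224 replicate 2 the medians were 0.61 and 0.49, and 8 of the 10 lay above.

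Taken as mean log2 (FPKM + 1), adipocyte markers were high in the libraries with high enzyme levels, and muscle markers only in some of them. The summed FPKM of 12 white adipocyte markers was 17671 and 4677 in normal aorta, 4741 and 3402 with BAPN alone, 4781 and 6373 with TPA, 1370 and 21228 with T-5224 and 8195 with coQ10, with Lep at 0 in T-5224 replicate 2 and every other marker listed in every library. The fatty acid binding protein gene Fabp4 made up most of this sum, with 4421 of 4741 in BAPN replicate 1 and 18726 of 21228 in T-5224 replicate 2. The mean log2 (FPKM + 1) of the 12, in which each gene counts alike, was 8.38 and 5.35 in normal aorta, 4.44 and 4.51 with BAPN alone, 6.24 and 6.55 with TPA, 4.51 and 6.43 with T-5224 and 7.11 with coQ10. The summed FPKM of 7 brown adipocyte markers was 1405 and 171 in normal aorta, 269 and 113 with BAPN alone, 805 and 871 with TPA, 182 and 1133 with T-5224 and 1854 with coQ10, with Elovl3 at 0 in normal replicate 2, both BAPN libraries and T-5224 replicate 1, and Otop1 at 0 in BAPN replicate 2. Both sums, and the white adipocyte mean, were higher in the library of the normal and T-5224 pairs that was also higher for the 9 genes. In the BAPN pair the 9 genes and both sums were higher in replicate 1, but the white adipocyte mean was slightly lower there.

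Adipoq was at 592 and 27.6 FPKM in normal aorta, 5.94 and 13.4 with BAPN alone, 140 and 129 with TPA, 18.1 and 179 with T-5224 and 210 with coQ10. For 7 of the 10 genes the 5 libraries with the highest Adipoq were also the 5 with the highest enzyme level, and without normal replicate 1 and T-5224 replicate 2 the same held for the 3 highest in 7 genes. Ucp1, the uncoupling protein of brown fat, was at 271 and 31.2 FPKM in normal aorta, 29.4 and 8.33 with BAPN alone, 78.0 and 80.8 with TPA, 22.6 and 19.7 with T-5224 and 297 with coQ10. Ucp1 and the lipid droplet gene Plin1, at 5.23 FPKM, were low in T-5224 replicate 2 although Adipoq, Cidea and the enzymes other than Cpt1a were high there. Lep, Plin4, Adrb3 and Cox7a1 were also lower in T-5224 replicate 2 than in replicate 1, Plin4 at 38.35 against 58.7 FPKM. The other white and brown adipocyte markers were higher in replicate 2.

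The summed FPKM of 15 skeletal muscle markers was 3639 and 24.3 in normal aorta, 4168 and 2666 with BAPN alone, 10263 and 19146 with TPA, 31.4 and 11078 with T-5224 and 80.9 with coQ10, with Myh2 at 0 in T-5224 replicate 1. The summed FPKM of 9 cardiac markers was 10549 and 63.6 in normal aorta, 33.8 and 53.5 with BAPN alone, 3106 and 573 with TPA, 58.2 and 1487 with T-5224 and 64.6 with coQ10, with Mybpc3 at 0 in BAPN replicate 1 and T-5224 replicate 1. Muscle and the enzymes did not always go together: BAPN replicate 1 had Ckm, the muscle creatine kinase, at 577 FPKM and Cpt1b at 8.15, and coQ10 had Ckm at 6.45 and Cpt1b at 59.9. Cpt1a was highest in normal replicate 2, where the skeletal muscle, cardiac and brown adipocyte sums were low. The summed FPKM of 10 smooth muscle markers there, 19078, was the highest of the 9 libraries. Cpt1a did not always follow this sum. T-5224 replicate 1 had a smooth muscle sum of 13162 and Cpt1a at 17.3, below both BAPN libraries. BAPN replicate 2 had the lowest smooth muscle sum, 774, and Cpt1a at 27.1. In bulk RNA, fewer cells of a type and less RNA per cell cannot be told apart, and the part of fat and muscle content in the differences between groups was not tested.

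**Figure D2:**
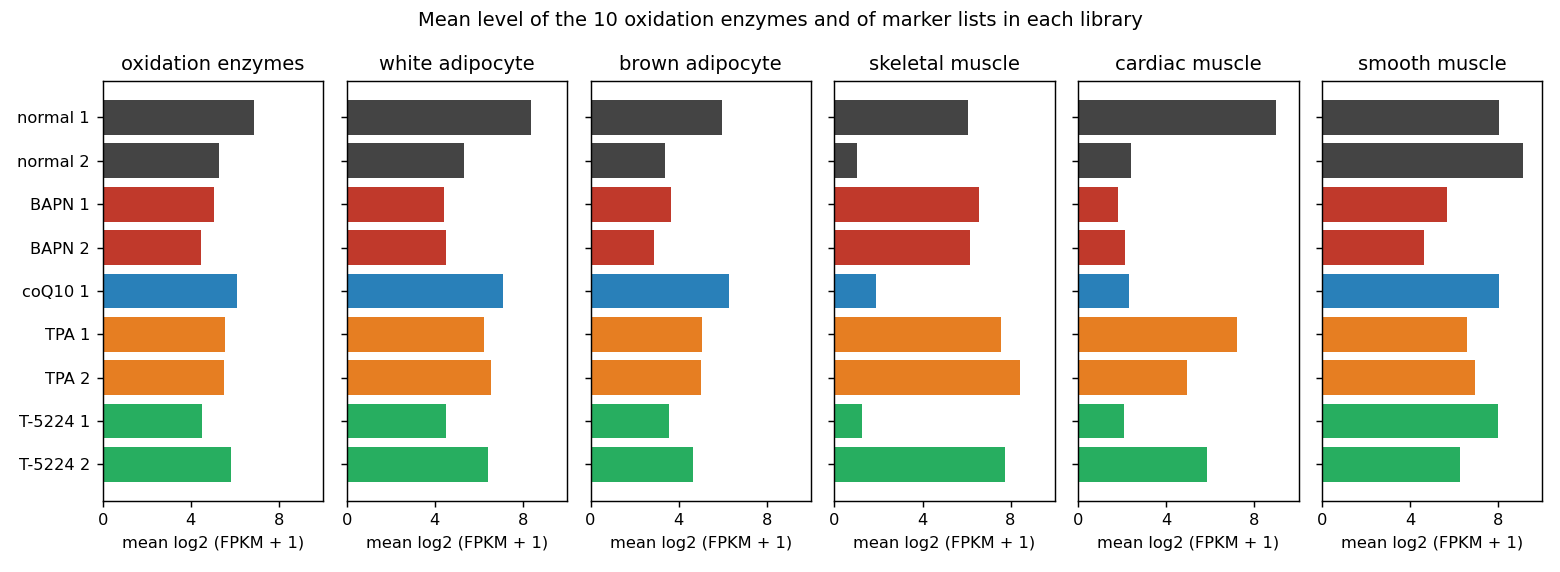
Mean log2 (FPKM + 1) of the 10 oxidation enzymes and of the marker lists in each library; bars are single libraries coloured by group. The enzymes' means run from 4.48 in BAPN replicate 2 to 6.88 in normal replicate 1, and the white adipocyte means from 4.44 to 8.38, while skeletal muscle is high in BAPN and low in coQ10.

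**Figure D3:**
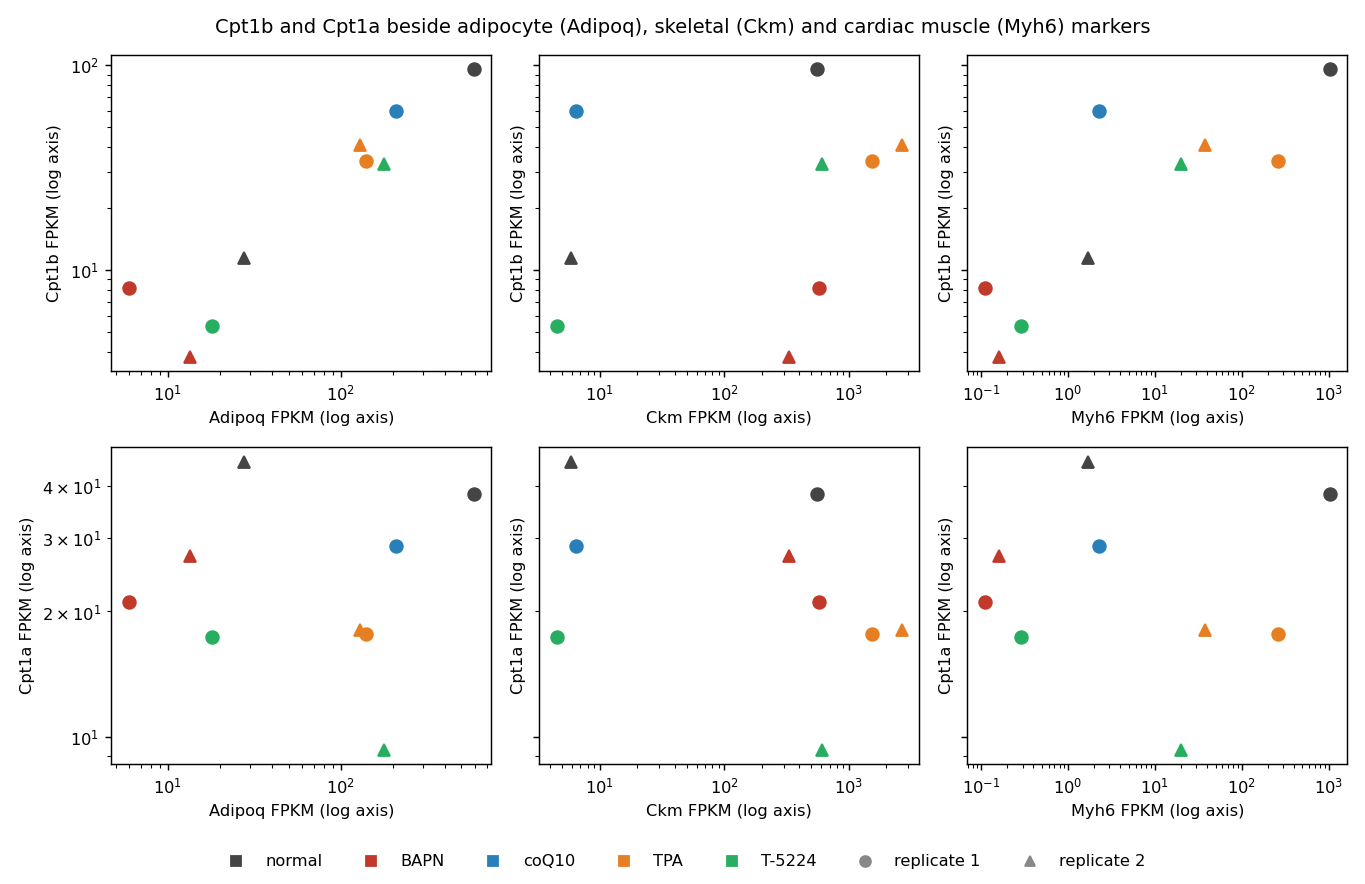
Cpt1b (top) and Cpt1a (bottom) against Adipoq, Ckm and Myh6, all in FPKM on log axes; each point is 1 library, coloured by group, with circles for replicate 1 and triangles for replicate 2. Cpt1b is at 32.8 or more in the 5 libraries with Adipoq at 129 or more and at 11.4 or less in the other 4, whereas Cpt1a has no such division.

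BAPN against normal addressed the effect of BAPN on the vessel. All 10 enzymes lay lower in BAPN by group mean, by -0.78 to -2.39 on the log2 (FPKM + 1) scale, and none passed the test (limma, 5 groups, 9 libraries, Benjamini-Hochberg adjustment over 12997 genes). Across all genes 424 passed, a share of 3.26%. For 7 enzymes both BAPN libraries lay below both normal libraries, the exceptions being Acadl, Hadhb and Acaa2, and 51.1% of all tested genes were placed in that way while 15.0% had both BAPN libraries above. No enzyme lay above. The median difference was -1.30 for the 10 and -0.51 for all tested genes.

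Hadha had the smallest p, at 28.1 ± 8.46 FPKM in BAPN against 89.4 ± 61.8 in normal (mean ± SD, n = 2 each), a difference of -1.47 log2 (SE 0.54, limma adjusted p = 0.118). Acot2 differed by -1.31 (SE 0.54, limma adjusted p = 0.148), and with Hadha it made 2 of 10 enzymes at an unadjusted p under 0.05, against 32.4% of all genes. Cpt1a, at 24.1 ± 4.22 against 41.9 ± 5.27 FPKM, differed by -0.78 (SE 0.35, limma adjusted p = 0.172). Cpt1b, at 5.96 ± 3.10 against 53.6 ± 59.7 FPKM, had the largest difference, -2.39 (SE 1.10, limma adjusted p = 0.181). Cpt2 differed by -1.41, Acadvl by -1.32, Acadm by -1.29, Hadhb by -1.24, Acadl by -1.01 and Acaa2 by -0.85, with limma adjusted p-values from 0.187 for Cpt2 to 0.516 for Acaa2. Without normal replicate 1 and T-5224 replicate 2 the enzymes' median was -0.53 beside -0.32 for all genes, none passed while 4087 of 12811 genes did, 7 lay below the 1 normal library left, as did 54.7% of all genes, and Acaa2 turned to 0.22. After median-of-ratios scaling, which removes the median shift of all genes, 3 enzymes (Cpt1b, Hadha and Acot2) lay below without overlap, as did 28.8% of all genes, and Cpt1a was at -0.21. With the trend on transcript length removed, the enzymes' median was -0.95 beside -0.03 for all genes, with Cpt1a at -0.15 and Hadha at -0.88. After rescaling to TPM all 10 passed as lower among 9637 genes that passed. With white adipocyte and skeletal muscle marker levels as covariates Cpt1a turned to 0.50 and Cpt2 to 1.63, the other 8 stayed below 0, from -0.03 for Hadha to -2.39 for Acadm, and the median was -1.28 beside 0.20 for all genes. Neither Cpt1a nor Cpt2 passed there (limma adjusted p = 0.775 and 0.510). That fit has fewer residual degrees of freedom than the main one. Its covariates also differ between groups, so it cannot separate tissue content from treatment.

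TPA against BAPN addressed what AP-1 activation adds to BAPN. By group mean 9 enzymes lay higher in TPA and Cpt1a lower, although Acot2 turned to -0.04 after median-of-ratios scaling and Cpt2, Acadl, Hadha and Acot2 turned below 0 with white adipocyte and skeletal muscle marker levels as covariates (enzymes' median -0.06, all genes -0.09), and none passed, while 5 of all genes did, a share of 0.0385%. Both TPA libraries lay above both BAPN libraries for 8 enzymes, all but Cpt1a and Acot2, where 41.4% of all genes did so, and below them for Cpt1a, where 21.2% did so. Cpt1b, at 37.6 ± 4.74 against 5.96 ± 3.10 FPKM (mean ± SD, n = 2 each), differed by 2.54 log2 (SE 1.10, limma adjusted p = 0.495). Cpt1a, at 17.8 ± 0.24 against 24.1 ± 4.22 FPKM, differed by -0.40 (SE 0.35, limma adjusted p = 0.682). The enzymes' median was 0.77 and that of all genes 0.18, and 0 of 10 had an unadjusted p under 0.05, against 10.2% of all genes.

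Cpt1b passed in this comparison only where the spread came from fewer libraries. With the TPA and BAPN libraries alone its limma adjusted p was 0.0272, and 1032 of 12896 genes passed in that fit. With normal replicate 1 and T-5224 replicate 2 left out, the enzymes' median was unchanged at 0.77. Only the BAPN and TPA pairs then give the spread, so passing in that fit is not read as a result for Cpt1b. Over all 19 alternatives its limma adjusted p ran from 0.0243 to 0.9995. The marker lists of adipocytes, muscle and airway were higher in TPA as well. The medians were 1.82 for white adipocyte, 1.90 for brown adipocyte, 2.05 for skeletal muscle, 4.08 for cardiac muscle, 1.48 for smooth muscle and 5.32 for airway epithelium, and no gene of these lists passed.

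T-5224 against BAPN addressed AP-1 inhibition. Cpt1a lay lower in both T-5224 libraries than in both BAPN libraries, at 13.3 ± 5.64 against 24.1 ± 4.22 FPKM (mean ± SD, n = 2 each), a difference of -0.86 log2 (SE 0.35, limma adjusted p = 0.264). It was 1 of 10 enzymes at an unadjusted p under 0.05, against 18.3% of all genes. Cpt2 lay higher in both, by 0.68 (SE 0.66, limma adjusted p = 0.586), but overlapped after median-of-ratios scaling and with haemoglobin left out of the sum. The other 8 overlapped, Cpt1b with a difference of 1.15 (SE 1.10, limma adjusted p = 0.583) between values of 5.34 and 32.8 in T-5224 and 8.15 and 3.77 in BAPN. Both T-5224 libraries lay above both BAPN libraries for 34.2% of all genes and below for 12.8%. None of the 10 passed, and 4 of all genes did, a share of 0.0308%. The direction of most enzymes rested on T-5224 replicate 2: the median was 0.48 with it, and -0.31 without it and without normal replicate 1, when T-5224 replicate 1 alone lay below both BAPN libraries for 5 enzymes (Cpt1a, Acadvl, Acadl, Hadhb and Acaa2), where 25.2% of all genes lay below and 57.6% above, and Cpt1b was at -0.06. The direction also depended on the scaling with both T-5224 libraries kept. After median-of-ratios scaling the median was 0.12, with Acadl, Hadhb and Acaa2 below 0. With haemoglobin left out of the sum it was -0.09, beside -0.13 for all genes. After TPM rescaling 6 lay above, as did 62.3% of all genes, and Cpt1a overlapped.

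The coQ10 library, which has no replicate, was set against BAPN to address coenzyme Q10 treatment. All 10 enzymes were higher in it than in either BAPN library as deposited, as were 59.6% of all genes, while 24.1% were lower than in either. Cpt1b was at 59.9 FPKM against 5.96 ± 3.10 (mean ± SD, n = 2), a difference of 3.20 log2 (SE 1.34, limma adjusted p = 0.252). Cpt2 differed by 1.87 (SE 0.80, limma adjusted p = 0.258) and Hadha by 1.46 (SE 0.66, limma adjusted p = 0.274). Cpt1a, at 28.6 FPKM against BAPN values of 21.1 and 27.1, differed by 0.25 (SE 0.42, limma adjusted p = 0.775), and it turned to -0.22 after median-of-ratios scaling, to -0.23 with the length trend removed and to -1.45 with the marker covariates. None of the 10 passed, and 2 of all genes did, a share of 0.0154%. The test takes the spread of the lone library to be that of the replicated groups. At an unadjusted p under 0.05 stood 1 of 10, Cpt1b, against 19.8% of all genes, and the medians were 1.35 for the enzymes and 0.39 for all genes.

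With the coQ10 and BAPN libraries alone, the enzymes' median in this comparison was 1.35. Only the BAPN pair then gives the spread, so passing in that fit, as Cpt1b did, is not read as a result. With normal replicate 1 and T-5224 replicate 2 left out, the enzymes' median was unchanged at 1.35. Only the BAPN and TPA pairs then give the spread, so passing in that fit is not read as a result. After TPM rescaling 9 enzymes, all but Acadl, passed among 7328 genes. Over all alternatives the limma adjusted p of Cpt1b reached 0.576. Brown adipocyte markers were higher in coQ10 for 7 of 7 genes, with a median of 3.22, and white adipocyte markers for 12 of 12, with a median of 2.86, while all 15 skeletal muscle markers were lower, with a median of -4.93. None of these markers passed.

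TPA against T-5224 set the AP-1 activator beside the inhibitor. Cpt1a, at 17.8 ± 0.24 FPKM in TPA and 13.3 ± 5.64 in T-5224 (mean ± SD, n = 2 each), differed by 0.45 log2 (SE 0.35, limma adjusted p = 0.636), and Cpt1b by 1.39 (SE 1.10, limma adjusted p = 0.643). For both, the 2 TPA libraries lay above the 2 T-5224 libraries, as for 16.5% of all genes, while 28.0% lay below. The other 8 overlapped, and Acot2, at 4.16 ± 0.41 against 7.00 ± 4.53 FPKM, was the 1 enzyme with a lower mean log2 in TPA, by -0.51 (SE 0.54, limma adjusted p = 0.732). These orders depended on the scaling and on 1 library. Without T-5224 replicate 2 and normal replicate 1 all 10 lay higher in TPA than in the 1 T-5224 library left, Acot2 by 0.11. The same held for 32.4% of all genes, while 54.3% lay lower. After TPM rescaling Cpt1a was at -0.06, and Cpt2, Hadha and Acot2 lay below without overlap, as did 49.1% of all genes. None of the 10 passed as deposited, against 2 of all genes (0.0154%), and none had an unadjusted p under 0.05, against 10.9% of all genes. The medians were 0.27 for the enzymes and -0.08 for all genes. The comparisons with BAPN share the BAPN libraries, and both comparisons with T-5224 share its libraries, so their values are not independent of each other.

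**Figure D4:**
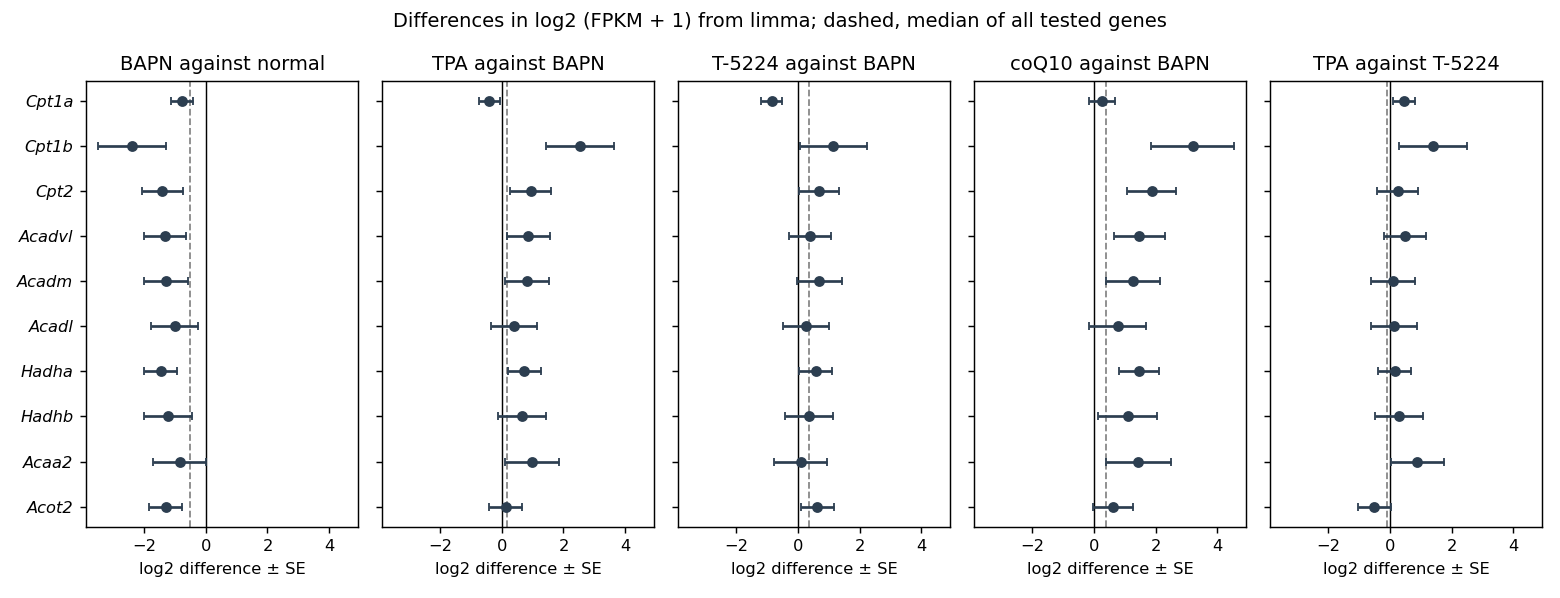
Differences in log2 (FPKM + 1) with their SE from limma for the 10 enzymes in each comparison; solid lines mark 0 and dashed lines the median of all tested genes. Cpt1b has the largest difference in each comparison with BAPN, and the SE is wide for every gene, with none past the threshold.

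Other genes of fatty acid use were set beside the 10, in lists chosen with earlier results of these data known. In BAPN against normal, 1 of 13 other mitochondrial β-oxidation genes passed: Acadsb, the dehydrogenase of short branched chains, which fell by 1.64 log2 (SE 0.31, limma adjusted p = 0.0490), from 44.6 and 35.8 FPKM to 14.6 and 10.2. All 13 lay lower in BAPN, as did 9419 of 12997 tested genes, with a median of -0.79 beside -0.51 for all tested genes. Among 8 tested regulators of oxidation genes, Rxra, the receptor with which PPARs pair, fell by 1.75 (SE 0.32, limma adjusted p = 0.0475), from 29.7 and 27.8 FPKM to 9.80 and 6.25. Each passed in 5 of 19 alternatives, with limma adjusted p-values up to 0.326 for Acadsb and 0.247 for Rxra. Without normal replicate 1 and T-5224 replicate 2, which leaves 1 normal library, the differences were -1.48 for Acadsb and -1.70 for Rxra. Acadsb was at 32.3 FPKM in coQ10, 23.1 and 19.5 in TPA and 27.6 and 36.4 in T-5224, above both BAPN libraries in all 5, and Rxra was at 29.6, 15.0, 15.9, 12.7 and 18.6 in the same order, also above in all 5. None of these differences from BAPN passed. Among the marker lists, Plin4, a lipid droplet protein, was 1 of 12 white adipocyte genes to pass, and fell by 3.57 (SE 0.37, limma adjusted p = 0.0256), from 165 and 203 FPKM to 17.3 and 12.0. It passed in 10 of the 19 alternatives, and without normal replicate 1 and T-5224 replicate 2 its difference was -3.72. Of cardiac genes 1 of 9 passed (Ryr2, which fell by 2.50), of smooth muscle genes 2 of 10 (Lmod1, which fell by 4.90, and Synpo2, which fell by 3.43) and of red blood cell genes 4 of 7, which rose, while 0 of 7 brown adipocyte, 0 of 15 skeletal muscle and 0 of 8 airway genes did. The median differences of the marker lists were -2.47 for white adipocyte, -1.39 for brown adipocyte, 3.17 for skeletal muscle, -3.26 for cardiac muscle, -3.63 for smooth muscle and -3.99 for airway epithelium.

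Of the remaining lists, none of 9 uptake and activation genes, 4 carnitine genes, 9 peroxisomal β-oxidation genes, 3 malonyl-CoA genes, 9 PPAR-responsive and ketone genes, 6 fatty acid synthesis genes, 18 nuclear oxidative phosphorylation genes and 9 citric acid cycle genes passed in any of the 5 comparisons. Acsl1, which activates long-chain fatty acids, was at 388 and 53.4 FPKM in the normal libraries and 16.0 and 15.1 in BAPN, a difference of -3.14 (SE 0.82, limma adjusted p = 0.0664). Klf15, a transcription factor of muscle and fat lipid use, was at 33.2 and 47.6 FPKM in normal aorta, 3.90 and 4.12 with BAPN alone, 16.0 and 21.5 with TPA, 9.81 and 89.6 with T-5224 and 60.3 with coQ10. Its limma adjusted p was 0.0799 in BAPN against normal. Ucp2, an uncoupling protein of many tissues, went the other way from the enzymes, at 295 and 98.8 FPKM in normal and 449 and 439 in BAPN, a difference of 1.37 (SE 0.53, limma adjusted p = 0.130). The median difference in BAPN against normal was -0.68 for oxidative phosphorylation and -0.78 for the citric acid cycle, beside -1.30 for the 10 enzymes and -0.51 for all genes. Acacb, which makes the malonyl-CoA that inhibits carnitine palmitoyltransferase 1, was high in the libraries with high Cpt1b, at 51.0 and 6.39 FPKM in normal aorta, 5.38 and 4.95 with BAPN alone, 22.3 and 26.3 with TPA, 6.27 and 27.8 with T-5224 and 53.6 with coQ10. Acaca, the form that also feeds fatty acid synthesis, was at 88.3 and 8.88 FPKM in normal aorta, 7.40 and 5.54 with BAPN alone, 22.0 and 23.3 with TPA, 14.8 and 9.20 with T-5224 and 62.0 with coQ10, and so was low in T-5224 replicate 2, where Cpt1b was high.

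The tested genes whose log2 levels over the 9 libraries were most like those of Cpt1a were Sparcl1 (Pearson r 0.97), Dgke (0.96) and Tusc3 (0.96). Those most like Cpt1b included Retsat (0.99) and Tmem79 (0.98). Without normal replicate 1 and T-5224 replicate 2 the values were 0.95, 0.96 and 0.91 for the first 3 and 0.99 and 0.99 for the last 2. Retsat, a retinol saturase, was at 34.6 and 4.85 FPKM in normal aorta, 4.12 and 2.59 with BAPN alone, 18.4 and 18.2 with TPA, 3.16 and 19.5 with T-5224 and 23.1 with coQ10, with the high and low libraries of Cpt1b. Sparcl1, a matricellular protein, was at 339 and 425 FPKM in normal aorta, 197 and 223 with BAPN alone, 200 and 185 with TPA, 148 and 115 with T-5224 and 301 with coQ10, highest and lowest in the same libraries as Cpt1a. These correlations rank likeness among 12997 genes over libraries that share treatment and tissue content, and are a description only.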

How the data were processed

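Total RNA of mouse aorta was sequenced in 9 libraries of 5 groups, taken from the labels. The authors deposited FPKM values per gene symbol for each library, aligned to mm10 per the submitters' processing notes. Aligner, counter, strand setting and annotation: not given in the sources used here. FPKM holds no read depth, and the deposited sums ran from 502238 to 1802050 per library.

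Symbols missing from a library were set to 0. A mean FPKM of 1 or more over the libraries was required (12997 of 17179 symbols), log2 (FPKM + 1) was fitted by group in limma 3.58.1 (R 4.3.3) over all 9 libraries with 4 residual degrees of freedom, with Benjamini-Hochberg adjustment across the 12997 genes and a threshold of 0.05. An offset of 1 understates differences of low genes. Tables and figures were made with matplotlib 3.10.9, scipy 1.17.1, numpy 2.4.6 and pandas 2.3.3 in Python 3.11.15. RefSeq (GRCm38.p6) gave gene positions and promoter windows, matching 16458 symbols, and GENCODE M 21 gave overlapping genes.

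The 10 enzymes were named by symbol. Of other lists, genes that passed, or else those with the smallest p, could be named, with the first gene of each marker list and the 3 genes most like Cpt1a and Cpt1b. For Cpt1b, 1 of these is not reported here. Members, lists and the 2 doubted libraries (normal replicate 1 and T-5224 replicate 2) were chosen with earlier results of these data known. Alternatives were an offset of 0.1, no filter, other scalings, fits of only 2 groups, each library left out, a replicate block, white adipocyte and skeletal muscle marker covariates and removal of a length trend. Overlap counts under other scalings, and overlap counts, ranges and likeness without the doubted libraries, were added after seeing the data.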

Additional observations from a re-analysis of the deposited data

How the results depend on the processing

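Of 50 enzyme differences, 27 had the other sign under at least 1 alternative (65 of 930 values), and 29 values passed the threshold, 19 of them after TPM rescaling, 8 without the doubted libraries (normal replicate 1 and T-5224 replicate 2) and 2 in fits of only the 2 groups. Counts of genes that passed are given below in the order BAPN against normal, then TPA, T-5224 and coQ10 against BAPN, then TPA against T-5224, beside 424, 5, 4, 2 and 2 as deposited. The cause of these shifts was not tested. Unknown depth leaves the counting error of low genes such as Acot2 unmeasured.

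TPM rescaling gave 9637, 2, 3168 and 7328 genes in the first 4, with 10 enzymes in BAPN against normal and 9 in coQ10 against BAPN, 6 enzymes without overlap in T-5224 against BAPN, 0 higher in TPA against T-5224, and Cpt1a there at -0.0591. Median-of-ratios scaling gave 226, 35 and 10 genes in BAPN against normal, T-5224 and coQ10 against BAPN, 3 enzymes without overlap in BAPN against normal and 0 higher in T-5224 against BAPN, with Cpt1a at -0.22 in coQ10. Leaving haemoglobin out of the sum gave 20, 2 and 2 genes in the first 3. In T-5224 against BAPN 0 enzymes then lay higher without overlap, beside 9.58% of all genes, and 1 lower, beside 22.2%. In TPA against T-5224, 9 lay higher, beside 37.7% of all genes, and 0 lower, beside 5.93%. The medians in TPA against T-5224 were 0.96 for the enzymes and 0.53 for all genes. Cpt1a was at -0.000263 in coQ10 and Acot2 at 0.10 in TPA against T-5224. Removing the length trend gave 126, 1 and 44 genes in the first 3 and Cpt1a at -0.23 in coQ10.

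No filter gave 53, 9, 2, 7 and 8 genes, and an offset of 0.1 gave 152, 0, 2, 1 and 0. Fits of only the 2 groups gave 55, 1032, 0, 1247 and 0 genes and 1 enzyme, Cpt1b, in TPA and in coQ10 against BAPN. Marker covariates gave 35, 0, 437, 13 and 2653 genes, with Cpt1a at 0.50 and Cpt2 at 1.63 in BAPN against normal, Cpt2 at -0.73 in T-5224 against BAPN, and Cpt1a at -1.45, Cpt2 at -1.78 and Hadha at -0.19 in coQ10 against BAPN. That fit has fewer residual degrees of freedom than the main one, and its covariates differ between groups. Without both doubted libraries 4087, 1052, 2341, 3045 and 603 genes passed, with 1 enzyme in TPA against BAPN, 5 in coQ10 against BAPN and 2 in TPA against T-5224, where 10 lay higher without overlap. That fit takes its spread from the BAPN and TPA pairs alone, since each other group holds 1 library. In it Acaa2 was at 0.22 in BAPN against normal, Cpt1b at -0.0594 in T-5224 against BAPN and Acot2 at 0.11 in TPA against T-5224.

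Leaving out 1 library at a time gave 0 (without BAPN replicate 1) to 3672 genes (without T-5224 replicate 2) in BAPN against normal, 0 to 9 in TPA, 0 to 80 in T-5224 and 0 to 176 in coQ10 against BAPN, and 0 to 649 in TPA against T-5224, and no enzyme passed in any of these fits. Acaa2 ran from -1.93 to 0.22 (without normal replicate 1) in BAPN against normal, Cpt1b from -0.0594 (without T-5224 replicate 2) to 2.35 in T-5224 against BAPN, and Acot2 from -1.12 to 0.11 (without T-5224 replicate 2) in TPA against T-5224. Without the coQ10 library its comparison has no value.

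The labels do not say that equal replicate numbers pair libraries, and correlations of deviations between same-numbered libraries ran from -0.44 to 0.18 over 6 pairs of groups. A fit with the replicate block gave 8, 2 and 0 genes in the first 3 comparisons, and no enzyme passed or changed sign. It gave none for coQ10, which has no number.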
